A study of Mus musculus with 4 samples.

Results

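The glandular kallikreins of the Klk1 cluster were examined in the testes of 2 kinds of adult male mouse. The members were the 10 genes Klk1, Klk1b5, Klk1b8, Klk1b11, Klk1b16, Klk1b21, Klk1b22, Klk1b24, Klk1b26 and Klk1b27, of 13319 genes named on the array, and all 13 probe sets annotated to any of them were used, of 22626. They were chosen because several are much higher in XX/Sry in both preparations, so their genotype ratios are a description and carry no test. Of the 13 probe sets, 11 name 1 gene and 2 name a pair of genes (Klk1b9 with Klk1b22, and Klk1b26 with Egfbp2); Klk1 has 3 probe sets and Klk1b5 has 2.

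XX/Sry males are chromosomally female and become male through an Sry transgene, and their testes lose the germ cells. In W/Wv males both copies of Kit, a receptor gene that germ cells need, are mutant; per the labels these males came from a cross of WB and B6 and were purchased. The 4 groups, each with 1 Affymetrix 430A array, were whole testis of XX/Sry, whole testis of W/Wv, seminiferous tubules of XX/Sry and seminiferous tubules of W/Wv, all from adults. The tubules had been freed with collagenase (5 mg/ml, 37 °C, 40 min) and washed on a 70 µm strainer. No label gives the strain of the XX/Sry males, the number of animals behind an array or whether whole testis and tubules shared animals, so strain and genotype cannot be told apart. With 1 array a group there were no replicates, and every fold is a ratio of single arrays.

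Glandular kallikreins are secreted serine proteases encoded by a tight cluster of near-identical genes on mouse chromosome 7. Klk1, the true tissue kallikrein, releases kinins from kininogens; most of the Klk1b genes arose by duplication in rodents and are best known from the androgen-dependent ducts of the mouse submandibular gland. Klk1b21, Klk1b24 and Klk1b27 are known from mouse Leydig cells, the testosterone-making cells between the tubules.

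The promoters of Klk1b24, Klk1b21 and Klk1b27 are shown first, because these 3 genes have the brightest signals of a single-gene probe set and turned out to share a stretch of upstream sequence. They were singled out after their signals were seen. Klk1b16 is given with them as a dimmer member that lacks that stretch. Each is the 250 bases before the annotated start, on the + strand of GRCm38.p6 (RefSeq), and capitals mark the run of 89 bases that is identical in the 3 genes, or its aligned counterpart in Klk1b16.
Klk1b24 (chr7:44187986-44188235): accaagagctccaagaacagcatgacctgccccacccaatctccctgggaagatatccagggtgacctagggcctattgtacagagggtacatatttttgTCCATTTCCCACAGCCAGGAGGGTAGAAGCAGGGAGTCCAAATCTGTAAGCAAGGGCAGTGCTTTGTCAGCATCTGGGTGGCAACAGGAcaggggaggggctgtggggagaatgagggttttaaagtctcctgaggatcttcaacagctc
Klk1b21 (chr7:44102042-44102291): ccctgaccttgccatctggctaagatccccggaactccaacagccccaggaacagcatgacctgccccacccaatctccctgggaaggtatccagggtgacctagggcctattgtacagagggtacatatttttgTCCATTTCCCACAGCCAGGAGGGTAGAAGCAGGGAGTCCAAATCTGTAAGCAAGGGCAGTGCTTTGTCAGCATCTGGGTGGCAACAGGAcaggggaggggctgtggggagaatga
Klk1b27 (chr7:44052040-44052289): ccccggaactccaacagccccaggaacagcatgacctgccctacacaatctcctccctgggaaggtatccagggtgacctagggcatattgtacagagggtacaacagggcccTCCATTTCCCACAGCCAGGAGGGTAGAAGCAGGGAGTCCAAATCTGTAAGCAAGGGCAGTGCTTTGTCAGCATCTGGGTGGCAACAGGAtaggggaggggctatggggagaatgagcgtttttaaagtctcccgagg
Klk1b16 (chr7:44137040-44137289): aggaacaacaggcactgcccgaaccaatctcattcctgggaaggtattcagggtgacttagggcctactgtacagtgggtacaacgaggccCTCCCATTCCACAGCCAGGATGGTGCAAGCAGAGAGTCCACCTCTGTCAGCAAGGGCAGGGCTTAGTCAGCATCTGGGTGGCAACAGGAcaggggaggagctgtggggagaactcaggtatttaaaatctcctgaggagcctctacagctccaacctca

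The run of 89 bases was the longest that the 3 genes share and that occurs in none of the other 11 promoters of the cluster. In Klk1b16 its counterpart had 15 substituted bases, and over all 11 genes the number ran between 13 (Klk1b11) and 24 (Klk1b8). The counterparts in Klk1b22 and Klk1b9, which share a bright probe set, and in Klk1b11, which stays dim, show how the same stretch reads elsewhere. Capitals here mark bases that are substituted or inserted relative to Klk1b24.
Klk1b22 (chr7:44112512-44112600): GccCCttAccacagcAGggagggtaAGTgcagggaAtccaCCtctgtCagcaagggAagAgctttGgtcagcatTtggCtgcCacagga
Klk1b9 (chr7:43975907-43975995): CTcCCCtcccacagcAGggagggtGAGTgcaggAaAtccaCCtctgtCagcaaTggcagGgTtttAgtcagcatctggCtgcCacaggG
Klk1b11 (chr7:43995717-43995805): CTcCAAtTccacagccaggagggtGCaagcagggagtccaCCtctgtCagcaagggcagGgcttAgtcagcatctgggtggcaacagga

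Promoters were found in the RefSeq table for all 10 members and for 14 protein-coding genes of the cluster in all, each as a window of 300 bases with 50 of them after the start. Klk1b24 and Klk1b21 were 97.7% identical over aligned bases, Klk1b27 and Klk1b21 94.5%, and Klk1b27 and Klk1b24 91.3%. Between these 3 genes and the 11 others the 33 pairs lay between 79.5% and 86.6%, with a median of 83.7%. The 55 pairs among the 11 others lay between 77.1% and 92.8%, with a median of 85.1%. Some of those pairs were thus closer than Klk1b27 and Klk1b24, such as Klk1b4 with the dim Klk1b5 (92.8%) and the dim Klk1b11 with Klk1b26 (91.6%). The closest promoter of Klk1b16 was that of Klk1b26 (90.9%), and that of Klk1b22 was Klk1b9 (88.4%). Klk1b8 and Klk1 had no promoter closer than that of Klk1b9, at 85.8% and 86.1%. The probe sets of genes this alike may also share transcripts, so signals of single members are uncertain.

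**Figure D1:**
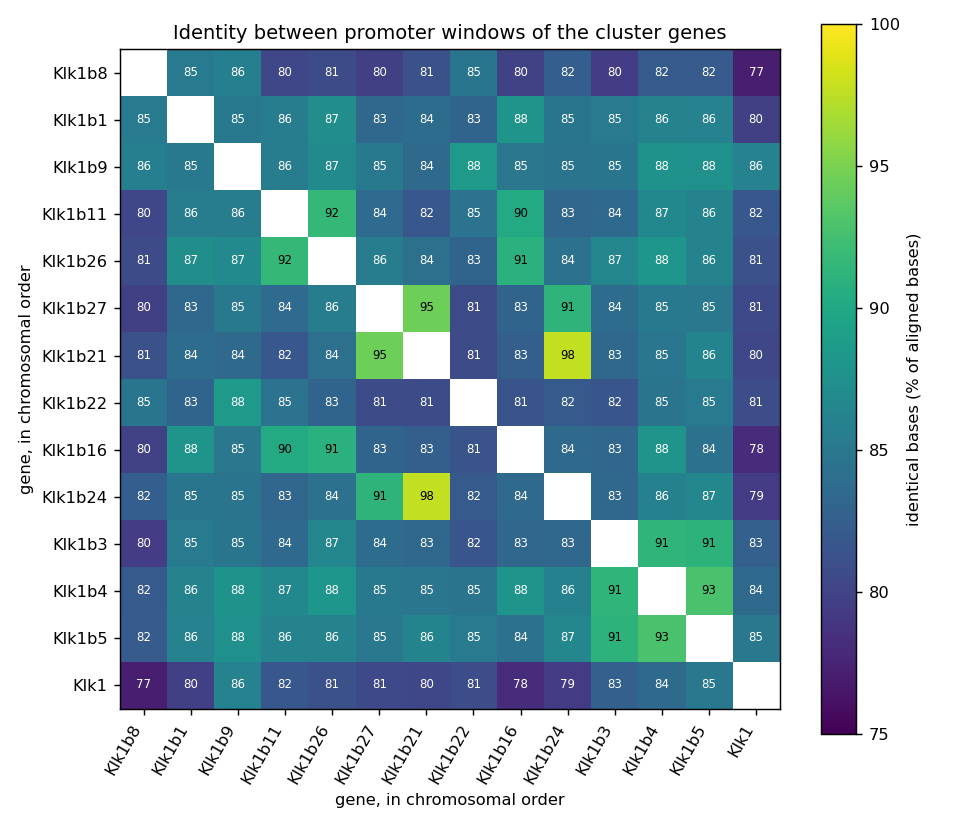
Percent of identical bases between the promoter windows of 14 genes of the cluster, with genes in chromosomal order on both axes and colour running between 75% and 100%. Klk1b27, Klk1b21 and Klk1b24 form the pairs at 94.5%, 97.7% and 91.3%, and their pairs with other genes stay at or below 86.6%. Pairs among the other genes reach 92.8%.

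Motifs were searched on both strands of each window. The letters TTTAAA, the TATA-like box of this family, were found in 13 of 14 cluster windows and in 13.2% of all 32851 promoter windows; Klk1 had no match in this window. In Klk1b24 the match began 31 bases before the annotated start and in Klk1b16 39 bases before it, but in Klk1b21 it began at 4 bases past the start, so the annotated starts are not at equal places. The nuclear receptor half-site AGGTCA, or TGACCT on the opposite strand, was found in 11 of 14 cluster windows and in 16.3% of all windows. More than 1 such match was found in 5 cluster genes (Klk1b1, Klk1b21, Klk1b24, Klk1b27 and Klk1) and in 1.81% of all windows. The cluster windows were 77.1% to 97.7% identical in pairs, so their matches are not independent of each other. Nothing is therefore read from these counts beside the shares over all windows. These matches are letters in a window and do not show binding.

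Signals are the deposited MAS5 values on a linear scale. A background bound was taken for each array as the highest of 27 bacterial control probe sets, at 63.9 for whole testis of XX/Sry, 76.3 for whole testis of W/Wv, 61 for tubules of XX/Sry and 46.1 for tubules of W/Wv. Among the 13 member probe sets, 10, 9, 11 and 7 (arrays in that order) lay at or above the bound on these arrays. By probe set, 5 were above it on all 4 arrays, 4 on 3, 2 on 2, 1 on 1 and 1 on none. Leydig cell markers were above it in 10 of 10 genes on every array, and Sertoli cell markers in 12, 12, 13 and 13 of 13. Germ cell markers were above it in 4, 9, 4 and 5 of 9 genes, and their summed signals of 920.5, 5269, 934.6 and 943.7 were highest in W/Wv whole testis. Xist, the X inactivation RNA, had signals of 3099 in XX/Sry and 130.6 in W/Wv whole testis, then of 1002 in XX/Sry and 76.7 in W/Wv tubules.

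In XX/Sry testes, 4 kallikrein probe sets were bright and were 4.34-fold to 8.78-fold brighter than in W/Wv. Those of Klk1b24, Klk1b21, Klk1b27 and the pair Klk1b9/Klk1b22 had their highest signal in XX/Sry whole testis and their lowest in W/Wv tubules. Klk1b16 and Klk1 were dimmer and also higher in XX/Sry, while Klk1b5 and Klk1b11 lay near or below background. By the 2-fold rule in both preparations, which the study's design text gives, 10 of 13 member probe sets were higher in XX/Sry, against 2.2% of all probe sets, and 1 was lower, against 3.8%. The members were chosen on this contrast, and nothing is read from those shares.

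Klk1b24 is a Leydig cell kallikrein. Its signal was 17868 in XX/Sry whole testis against 2158.5 in W/Wv whole testis, then 3652 in XX/Sry tubules against 444.5 in W/Wv tubules. XX/Sry exceeded W/Wv 8.28-fold in whole testis and 8.22-fold in tubules, log2 ratios of 3.05 and 3.04. With arrays scaled to the spike controls these log2 ratios were 2.96 in whole testis and 3.78 in tubules, so that their closeness depends on the scaling. Among all probe sets of the same array it stood at percentile 99.8 for whole testis of XX/Sry, 93.3 for whole testis of W/Wv, 96.3 for tubules of XX/Sry and 70.0 for tubules of W/Wv.

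Klk1b21 encodes a protease that cleaves fibronectin and Igfbp3 in vitro. Signals of 9758 and 2029 were measured in XX/Sry and W/Wv whole testis, and of 2837 and 488.9 in XX/Sry and W/Wv tubules, 4.81-fold and 5.80-fold higher in XX/Sry. Klk1b27, the third of the Leydig cell kallikreins, gave 8774 against 2023 in whole testis and 2407.5 against 274.3 in tubules, XX/Sry before W/Wv. Its ratios were 4.34-fold and 8.78-fold, so that the whole testis arrays stood closer together than the tubule arrays. For all 3 genes both XX/Sry arrays were brighter than both W/Wv arrays.

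The probe set of Klk1b9/Klk1b22, genes of proteins that bind epidermal growth factor, read 9376 in XX/Sry and 1232 in W/Wv whole testis, then 2025.5 in XX/Sry and 280 in W/Wv tubules. XX/Sry exceeded W/Wv 7.61-fold and 7.23-fold, and which of the genes gives the signal cannot be told apart. The log2 difference between the genotype ratio in tubules and that in whole testis, here called the double ratio, was -0.07 for it, -0.01 for Klk1b24, 0.27 for Klk1b21 and 1.02 for Klk1b27. It could not be tested, since the 4 arrays leave no error for it.

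Klk1b16, the gene of gamma-renin, was lower than these and above its bound on 3 arrays. It read 547.4 in XX/Sry and 79.4 in W/Wv whole testis (6.89-fold higher), then 231 in XX/Sry against 7.2 in W/Wv tubules. The last value is below the bound, so that the tubule fold is given as at least 3.79. Klk1b8 read 239.2 and 113.5 in XX/Sry and W/Wv whole testis, and 126.7 and 40.4 in XX/Sry and W/Wv tubules, 2.11-fold and at least 2.08-fold higher.

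Klk1, which makes kinins, had 3 probe sets that did not give 1 picture. The first, whose name ends in x_at and which was the brightest of the 3 in XX/Sry whole testis, read 390.5 in XX/Sry and 105.8 in W/Wv whole testis, then 388.6 in XX/Sry and 19.5 in W/Wv tubules, 3.69-fold and at least 6.37-fold higher. The second, of the plain at kind, read 346 and 24.5 in XX/Sry and W/Wv whole testis and 312 and 77.6 in XX/Sry and W/Wv tubules, at least 4.53-fold and 4.02-fold higher. The third, also of the x_at kind, read 189.9 in XX/Sry against 116.3 in W/Wv whole testis, then 588.1 in XX/Sry against 84.6 in W/Wv tubules, 1.63-fold and 6.95-fold higher. All 3 were brighter in both XX/Sry arrays than in both W/Wv arrays, but the third was under 2-fold in whole testis.

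The remaining members were at the edge of detection. Klk1b26/Egfbp2 read 102.3 in XX/Sry and 46.5 in W/Wv whole testis, then 61 in XX/Sry and 7.4 in W/Wv tubules; of these the first alone exceeded its bound. The probe sets of Klk1b5 did not pass 66.7 on any array, and 1 of the 2 was below its bound on all arrays. Klk1b11 ran the opposite way, at 8.9 in XX/Sry and 117.8 in W/Wv whole testis, then 37.9 in XX/Sry and 92.7 in W/Wv tubules. Held to the bound, XX/Sry was lower by at least 1.54-fold in whole testis and by at least 1.52-fold in tubules. With folds held to the background bound, 8 member probe sets were higher in XX/Sry by 2-fold or more, against 0.698% of all probe sets, and 0 were lower, against 0.495%. Those that no longer counted were Klk1b5, Klk1b26/Egfbp2 and Klk1b11.

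**Figure D2:**
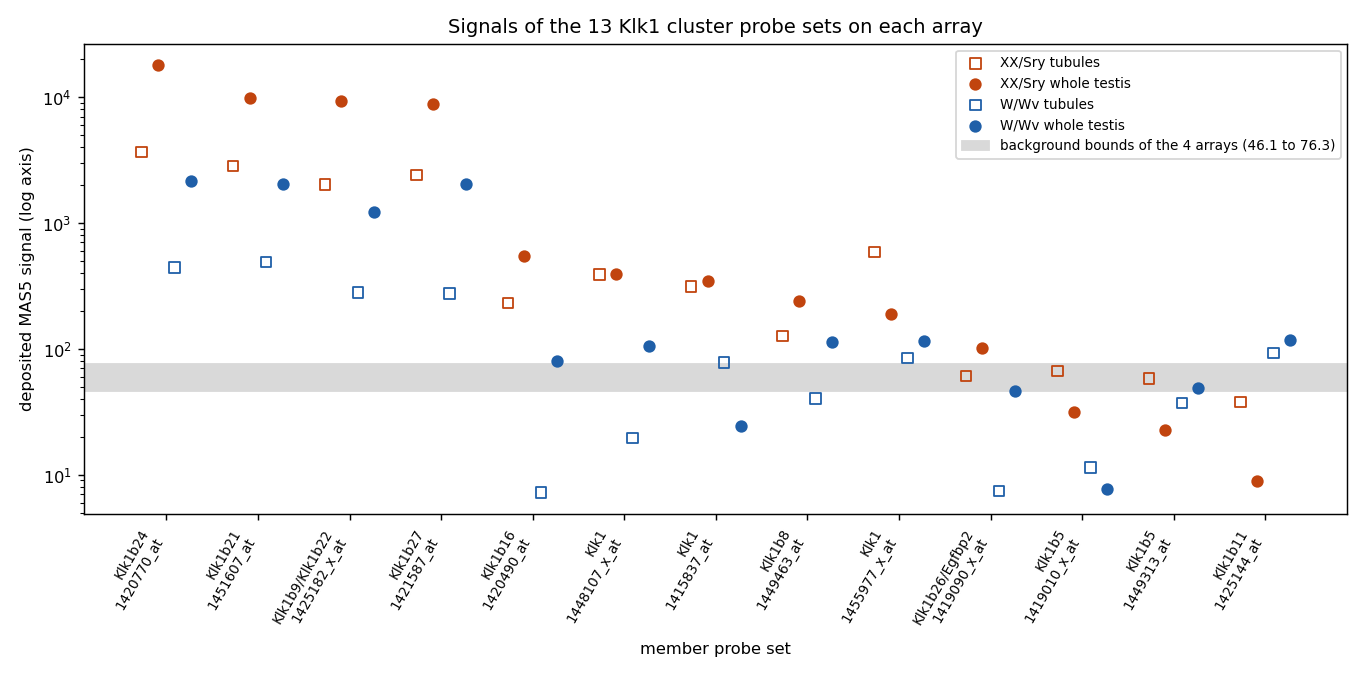
Deposited MAS5 signal (log axis) of the 13 member probe sets, ordered by their signal in XX/Sry whole testis; orange-red marks XX/Sry and blue W/Wv, open squares tubules and filled circles whole testis. The 4 probe sets at the left lie above the grey band of background bounds (46.1 to 76.3) on all arrays, and each of the last 4 has arrays below 46.1 or inside the band.

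Over the 13 member probe sets the median log2 genotype ratio was 2.02 in whole testis and 2.80 in tubules, and the medians over all probe sets were -0.11 and -0.02. The median of 2.02 is the ratio of a Klk1b5 probe set. Its whole testis signals, 31.3 for XX/Sry and 7.7 for W/Wv, both lay below the bound. The log2 ratio was positive for 11 member probe sets in whole testis, against 43.4% of all probe sets, and for 12 in tubules, against 48.6%. Both counts include ratios of signals below the bound. Since the members were chosen on this contrast, nothing is read from these medians and counts. The 18 spike control probe sets had medians of -0.13 and -0.66, and their part in the tubule ratios of the members was not tested. The Leydig cell markers, 10 genes, had medians of 0.58 and 1.13. Their summed signal was 89658 in XX/Sry and 68267 in W/Wv whole testis, then 45912 in XX/Sry and 21209 in W/Wv tubules. Of them Sult1e1 and Hsd17b3 were 2-fold higher in both preparations, against 1.98% of all genes, and 0 were lower, against 3.22%. In bulk tissue more Leydig cells and more RNA per cell cannot be told apart.

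**Figure D3:**
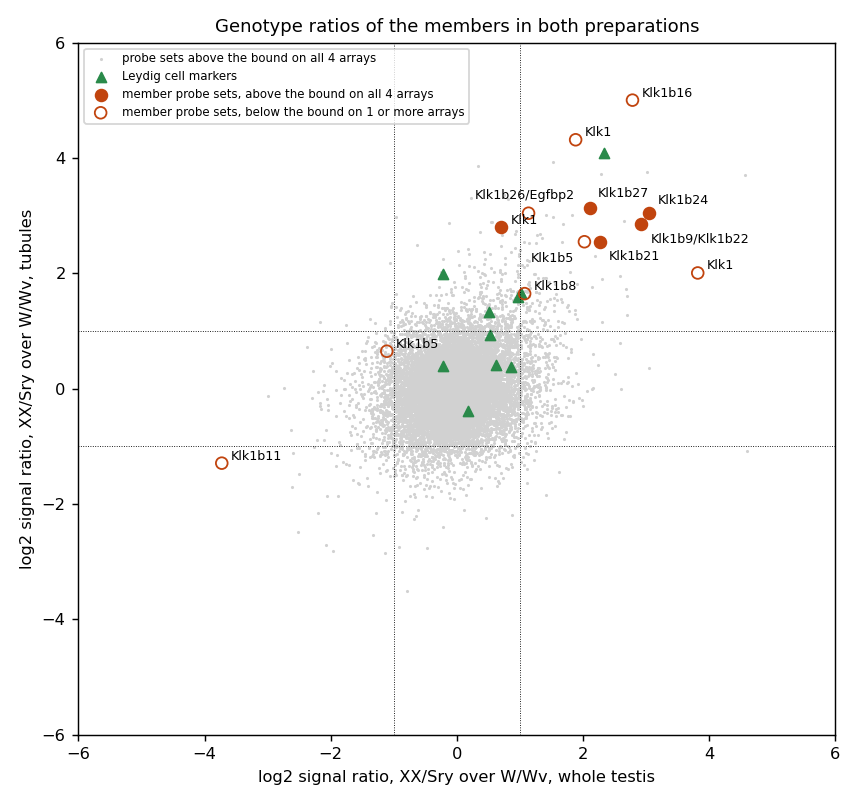
Log2 signal ratio of XX/Sry over W/Wv in whole testis (x axis) and in tubules (y axis) for all probe sets above the bound on all arrays (grey), Leydig cell markers (green) and the 13 member probe sets (orange-red, open where below the bound on at least 1 array). Dotted lines mark 2-fold; 10 members lie beyond it at the upper right, and Klk1b11 at the lower left.

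The genes of the cluster lie in 1 order on chromosome 7 and all run on the + strand in the annotation. Klk1b27, Klk1b21, Klk1b22, Klk1b16 and Klk1b24 stand at places 6 to 10 of the 14 protein-coding genes and follow each other, pseudogenes not counted; all 4 of their probe sets annotated to 1 gene, and the one shared with Klk1b9, were at least 4.34-fold higher in XX/Sry whole testis. Of the other members, Klk1b8, Klk1b11 and Klk1b26 lie before them and Klk1b5 and Klk1 after them. By highest signal, Klk1 (588.1) exceeded Klk1b16 (547.4) but lay far below the probe sets of Klk1b24, Klk1b21, Klk1b27 and Klk1b9/Klk1b22, which reached 8774 or more. The Klk1 probe set with the signal of 588.1 was 1.63-fold higher in XX/Sry whole testis. The Klk1 probe set that was at least 4.53-fold higher there had a highest signal of 346, below that of Klk1b16. Klk1b3 and Klk1b4 were not analysed here. Whether Klk1b9, at the third place, is among the bright genes cannot be told apart from Klk1b22.

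**Figure D4:**
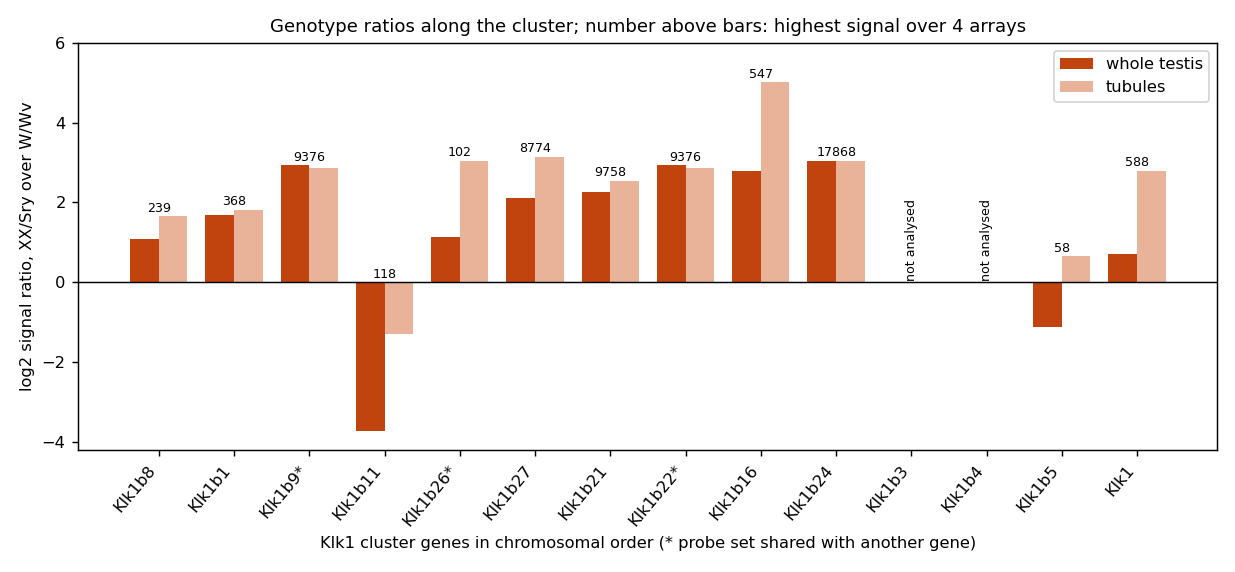
Log2 signal ratio of XX/Sry over W/Wv in tubules (light bars) and whole testis (dark bars) for the genes of the cluster in chromosomal order, with the brightest probe set of each gene and its highest signal over the 4 arrays above the bars. The signals of 547 to 17868 lie at places 6 to 10, apart from Klk1 at the end (588) and the probe set that Klk1b9 shares with Klk1b22; ratios of genes with signals below the bounds are uncertain.

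The other contrast set tubules against whole testis within each genotype, and it was not used to choose the members. The 4 bright kallikrein probe sets fell in tubules in both genotypes. Klk1b24 read 3652 in tubules and 17868 in whole testis of XX/Sry, and 444.5 in tubules and 2158.5 in whole testis of W/Wv, 4.89-fold and 4.86-fold lower. Klk1b21 was 3.44-fold and 4.15-fold lower in tubules of XX/Sry and of W/Wv, Klk1b27 3.64-fold and 7.37-fold, and Klk1b9/Klk1b22 had log2 ratios of -2.21 and -2.14. In each of these probe sets both tubule arrays were dimmer than the whole testis array of their own genotype, while XX/Sry tubules stayed brighter than W/Wv whole testis.

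A limma fit with additive terms for preparation and genotype, run over all 22626 probe sets, gave the only error the arrays allow. Klk1b24 had a log2 change of -2.29 (SE 0.24, adjusted p = 0.00206, limma), Klk1b9/Klk1b22 -2.17 (SE 0.24, adjusted p = 0.00276), Klk1b27 -2.37 (SE 0.28, adjusted p = 0.00358) and Klk1b21 -1.92 (SE 0.24, adjusted p = 0.00451). These were the 4 of 13 member probe sets called lower in tubules, against 0.959% of all probe sets, and 0 were called higher, against 0.221%; unadjusted, 5 had a p under 0.05. The fit has 1 residual degree of freedom, and its residual is the double ratio, which comes from the genotype ratios that chose the members. Its error is mostly borrowed from other probe sets of like signal, with 9.80 prior degrees of freedom. For Klk1b24 the double ratio was -0.01 and the SE 0.24, so the adjusted p-values do not measure each probe set's own spread. Without a trend of the variance on signal 0 of the 13 were called (adjusted p = 0.542 in limma for each of the 4).

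Klk1b16 had a log2 change of -2.35 (adjusted p = 0.147, limma). It read 231 in tubules and 547.4 in whole testis of XX/Sry, 2.37-fold lower, and at least 1.04-fold lower in W/Wv. Klk1b8 read 126.7 against 239.2 in XX/Sry and 40.4 against 113.5 in W/Wv, tubules before whole testis, without passing (adjusted p = 0.369, limma). By the 2-fold rule in both genotypes 5 member probe sets were lower in tubules, against 5.86% of all probe sets, and 0 higher, against 1.81%. Against the background bound 4 were lower, where 2.1% of all probe sets were, and 0 higher, where 0.575% were, since the W/Wv fold of Klk1b16 is a bound under 2.

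The Klk1 probe sets did not pass in this contrast. In XX/Sry, the first read 388.6 in tubules and 390.5 in whole testis, and the second 312 in tubules and 346 in whole testis, so that Klk1 signals stood nearly level where those of Klk1b24 differed 4.89-fold. The third probe set was 3.10-fold higher in XX/Sry tubules. In W/Wv its signals of 84.6 in tubules and 116.3 in whole testis were close to the bounds. The first probe set was not level in W/Wv, at 19.5 in tubules, below the bound, and 105.8 in whole testis, at least 1.39-fold lower. The second read 77.6 in tubules of W/Wv and 24.5 in whole testis, the latter below the bound, at least 1.02-fold higher. The adjusted p-values of the 3 in the limma fit were 0.419, 0.641 and 0.701. Whether Klk1 differs from Klk1b24 in this contrast was not tested.

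**Figure D5:**
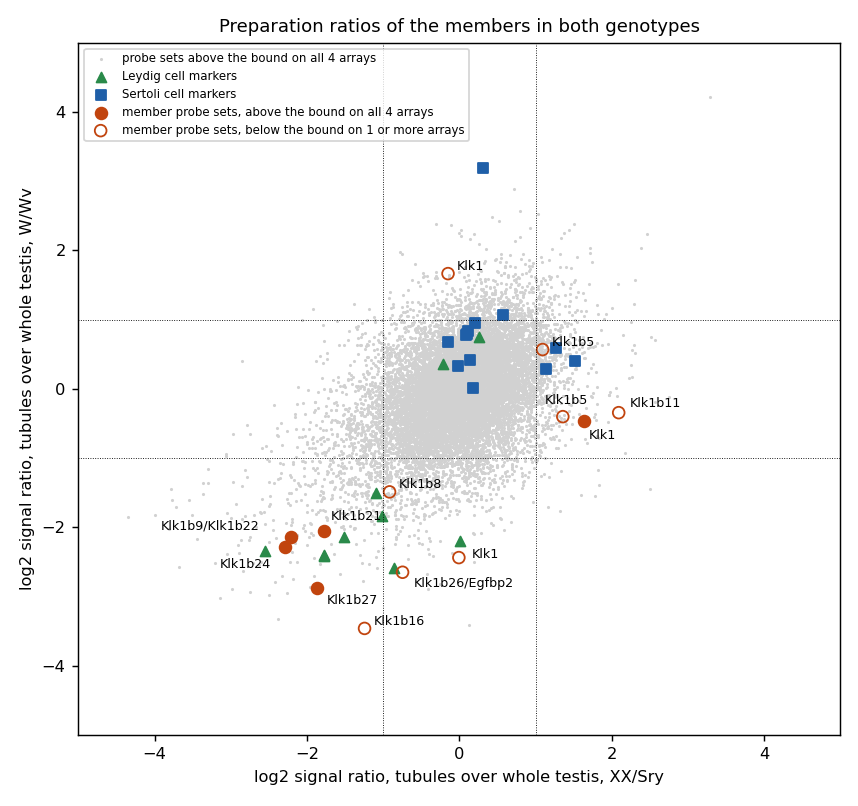
Log2 signal ratio of tubules over whole testis in XX/Sry (x axis) and in W/Wv (y axis) for all probe sets above the bound on all arrays (grey), Leydig cell markers (green), Sertoli cell markers (blue) and the 13 member probe sets (orange-red, open where below the bound on at least 1 array). Klk1b24, Klk1b21, Klk1b27 and Klk1b9/Klk1b22 lie at the lower left beside several Leydig cell markers, and the Klk1 and Klk1b5 probe sets do not. Macrophage markers are not drawn, and 9 of their 10 genes were also 2-fold lower in tubules of both genotypes.

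Marker genes of cell types differed between the preparations too. Of the 10 Leydig cell markers 6 were 2-fold lower in tubules of both genotypes, against 5.74% of all genes, and 0 were higher, against 1.32%, with median log2 ratios of -1.06 in XX/Sry and -2.17 in W/Wv. Cyp11a1, which starts steroid synthesis, had log2 ratios of -2.55 and -2.35, and Hsd17b3, which makes testosterone, of -1.77 and -2.42. Star, which carries cholesterol into mitochondria, had -1.10 and -1.50, and its log2 genotype ratios were 0.52 in whole testis and 0.92 in tubules. Not all Leydig cell markers fell, and 2 of the 10 had a positive log2 ratio of tubules over whole testis in each genotype. Scarb1 had 0.26 in XX/Sry and 0.75 in W/Wv, Ptgds 0.01 and -2.20, and Nr5a1 -0.21 and 0.36. Macrophage markers were lower in 9 of 10 genes, with medians of -2.74 and -1.69 and summed signals of 3767 in tubules and 17424 in whole testis of XX/Sry. Sertoli cell markers passed in 0 of 13 genes in either direction, with medians of 0.18 and 0.67. For the 13 member probe sets the medians were -0.75 in XX/Sry and -2.05 in W/Wv, against -0.03 and -0.15 over all probe sets. The part of each cell type in the kallikrein signals was not tested.

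Genes with the pattern most like that of Klk1b24 were sought by the root-mean-square difference of log2 signals, each centred on its mean over the 4 arrays, among 12615 probe sets of other single genes above the bound on all arrays. The nearest was Sult1e1, an enzyme gene for sulfating estrogen, with a difference of 0.53. Its signals were 2151 in XX/Sry and 425.9 in W/Wv whole testis, then 1191.5 in XX/Sry and 70.5 in W/Wv tubules. Cd36, a fatty acid receptor, followed at 0.75, with Xist at 0.80, the lipid droplet gene Bscl2 (seipin) at 0.81 and the mitochondrial carrier gene Slc25a29 at 0.83. Within the cluster, Klk1b9/Klk1b22 lay at 0.10, Klk1b27 at 0.33 and Klk1b21 at 0.38, all nearer than any of these. Klk1b16 lay at 0.70 and 1 of the 12615 was nearer, while for the Klk1 probe sets 3, 1054 and 1621 were nearer. Unlike the 12615, Klk1b16 and the first Klk1 probe set were below the bound in W/Wv tubules (7.2 and 19.5). The second Klk1 probe set was below it in W/Wv whole testis (24.5). The difference includes the genotype ratios that chose the members, so the nearness of members is partly set by that choice. Over 4 arrays such likeness is a description and says little of single genes.

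Among kallikreins outside the members, Klk1b1 of the same cluster read 367.9 in XX/Sry and 114.7 in W/Wv whole testis (3.21-fold higher), then 101.6 in XX/Sry and 29 in W/Wv tubules (at least 1.67-fold higher). In tubules of XX/Sry it was 3.62-fold lower than in whole testis. The other kallikrein-related peptidases (Klk4, Klk6, Klk7, Klk8, Klk10, Klk11 and the plasma kallikrein Klkb1) did not exceed 124.4 on any array, and 1, 1, 1 and 3 of 7 were above the bound in XX/Sry whole testis, W/Wv whole testis, XX/Sry tubules and W/Wv tubules. By the deposited signals 1 of them, Klk8, was 2-fold higher in XX/Sry in both preparations, against 1.98% of all genes. None was lower, against 3.22%. Klk8 read 89.1 in XX/Sry and 12.4 in W/Wv whole testis, then 61.2 in XX/Sry and 20 in W/Wv tubules. Both W/Wv signals lay below the bound, so that its folds are at least 1.17 and at least 1.003.

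In the list for the kinin system, 1 of 12 genes was 2-fold higher in XX/Sry in both preparations, against 1.98% of all genes, and 0 were lower, against 3.22%. That gene was Agt, angiotensinogen, the substrate of renin and not a kininogen or kinin receptor gene. Agt had signals of 14816 in XX/Sry and 7095 in W/Wv whole testis, then 8688 in XX/Sry and 2012 in W/Wv tubules. Kng1, a kininogen gene and source of kinins, lay below the bound on all arrays, at no more than 50.8. The kinin receptor genes Bdkrb1 and Bdkrb2 had signals between 10.1 and 133.4, and neither they nor Kng1 passed. Cpe, a carboxypeptidase gene, was bright, at 11639 and 14866 in XX/Sry and W/Wv whole testis.

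Of 15 substrates and partners of kallikreins, 1 passed as lower in XX/Sry by the 2-fold rule, against 3.22% of all genes, and 0 were higher, against 1.98%. It was Igfbp3, a carrier of insulin-like growth factors, with 265.8 in XX/Sry and 1034.5 in W/Wv whole testis, then 270.2 in XX/Sry and 1904 in W/Wv tubules. Egf, the growth factor bound by kallikreins of the submandibular gland, stood near the bounds, at 93.8 in XX/Sry and 76.5 in W/Wv whole testis, then 146.3 in XX/Sry and 70.7 in W/Wv tubules. Of 12 serine protease inhibitors 0 passed between genotypes in either direction; Serpina5, the protein C inhibitor, which binds kallikreins, read 11151 in XX/Sry and 11772 in W/Wv whole testis.

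Markers of other tissues in which glandular kallikreins are known, or which a dissection could carry, were read as well. Of 7 salivary gland genes 5, 6, 6 and 5 were above the bound in XX/Sry whole testis, W/Wv whole testis, XX/Sry tubules and W/Wv tubules, with summed signals of 3417, 2410, 1758 and 1067, of which Amy1 alone gave 2258, 1760, 1057 and 509.4. Amy1, Aqp5, Cldn10 and Egf were above it on all 4 arrays, Bhlha15 on 3, Prol1 on 2 and Dcpp1 on 1. Aqp5, a water channel gene, read 770.5 in XX/Sry and 228.9 in W/Wv whole testis (3.37-fold higher), then 327.4 in XX/Sry and 305.5 in W/Wv tubules (1.07-fold higher). Dcpp1 and Prol1 read 13.7 and 26.5 in XX/Sry whole testis. Prol1 was the 1 gene of the list that passed as lower in XX/Sry by the 2-fold rule, against 3.22% of all genes. Its XX/Sry signals of 26.5 in whole testis and 3.1 in tubules lay below the bound, so that its folds are at least 1.17 and at least 1.28. Of 8 genes of epididymis and efferent ducts 3, 3, 3 and 4 were above it on the same arrays; Lcn2, at 12534, 8015, 6424 and 2783, made most of their summed signals, and Gpx5, Lcn5 and Defb1 stayed at or under 91.4. The part of either tissue in the kallikrein signals was not tested. Mast cell markers were 2-fold higher in XX/Sry in both preparations in 1 of 7 genes and endothelial markers in 1 of 8 (Emcn), against 1.98% of all genes. The mast cell gene was Cma1, of a chymase, whose W/Wv signals of 30.9 in whole testis and 24.9 in tubules lay below the bound, so that its folds are at least 1.07 and at least 1.83. In the lists of macrophages (10 genes), Sertoli cells (13), myoid cells (8) and androgen response (7), 0 genes passed in either direction between genotypes. Of the 9 germ cell genes 2, Ddx4 and Sall4, were lower in XX/Sry, against 3.22% of all genes, and 0 were higher, against 1.98%. Their XX/Sry signals lay below the bound, so that the folds in whole testis and tubules are at least 3.99 and 1.13 for Ddx4. For Sall4 they are at least 5.03 and 2.66. The preparations differed for this list, with 0 of 9 log2 genotype ratios positive in whole testis (median -3.47) and 6 in tubules (median 0.55).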

How the data were processed

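The deposited values are array intensity, given by the authors as MAS5 signals, per the submitters' processing notes; Microarray Suite 5.0 was the software and hybridisation took 16 hours, per the series' design text. A scaling target is not stated; the mean without the outer 2% at each end was 497.1, 497.1, 497.5 and 497 in XX/Sry whole testis, W/Wv whole testis, XX/Sry tubules and W/Wv tubules. Signals were used as deposited. After removal of 64 control probe sets from 22690, the platform's annotation, which can be old, gave 1 gene symbol to 20380 probe sets, several to 691 and none to 1555; 20351 of the first had their Entrez identifier in the RefSeq table. Genes of lists were represented by the probe set with the highest mean log2 signal (12393 genes). Promoters are RefSeq's (GRCm38.p6). They were aligned in pairs with Biopython 1.88. A further motif was searched and is not reported here, so the motifs given are not all that were tried.

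Folds are ratios of single arrays. Where the dimmer signal lay below the bound of its array, the brighter signal was divided by whichever of the 2 arrays' bounds was higher, and the fold is given as at least that. The additive fit of genotype and preparation was run with limma 3.58.1 in R 4.3.3 on log2 signals floored at 1. It had a variance trend (9.80 prior degrees of freedom), two-sided tests and Benjamini-Hochberg adjustment over 22626 probe sets. It was also run on simulated data with planted changes, whose variance falls with signal by design. That run does not bear on the member calls, which depend on such a trend. The fit takes the arrays as independent. No labels say that samples came from separate animals, so the spread between arrays may be technical. Precision is limited by having 1 array a group.

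The members and the 15 gene lists (178 entries) were chosen with earlier results of these data known. Named were all members, other kallikreins and listed genes past 2-fold in both pairs of a contrast or named beforehand. The 5 genes nearest to Klk1b24 in pattern were also named. Single genes beyond these rules were chosen for their role after their values were seen. They were Cpe, Kng1, Bdkrb1, Bdkrb2, Serpina5, Xist's level as a check, and markers of other tissues. Scarb1, Ptgds and Nr5a1 were named, after their values were seen, for positive log2 ratios in the preparation contrast. Alternatives were median centring, quantile normalisation, an offset of 50, single-gene probe sets, a background filter, no variance trend, the mean of all probe sets of a gene and, added after seeing the data, scaling to the spike controls.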

Additional observations from a re-analysis of the deposited data

Results flagged for a closer look

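Klk1 ran in opposite directions between the genotypes in the preparation contrast with 2 of its 3 probe sets, and the difference was not tested. With the second probe set the log2 ratio of tubules over whole testis was -0.15 in XX/Sry and 1.66 in W/Wv; the W/Wv whole testis signal lay below its bound, so that the W/Wv fold is at least 1.02. With the third the log2 ratio was 1.63 in XX/Sry (3.10-fold higher in tubules) and -0.46 in W/Wv (1.37-fold lower). The probe sets thus disagreed with each other as well as between genotypes, and none of the 3 passed the additive fit.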

How the results depend on the processing

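No paired analysis was possible because each group held 1 array and the labels give no replicate numbers; leaving out a replicate was likewise not possible. The main count of 10 higher member probe sets in XX/Sry became 7 with 50 added to all signals and 9 with scaling to the spike controls. It was 8 among the 11 single-gene probe sets. No alternative moved that count by over 1.5 times. The count lower in XX/Sry (1, Klk1b11) became 0 with 50 added to all signals and with scaling to the spike controls. For the median log2 ratio of the members, the W/Wv preparation ratio of -2.05 became -0.85 with the offset and -2.91 with spike scaling, the XX/Sry preparation ratio of -0.75 became -0.15 with single-gene probe sets, and the genotype ratio in tubules of 2.80 became 3.54 with spike scaling. The median double ratio, 1.02 as deposited, became 0.29 with the offset and 1.85 after centring to the spike controls. Quantile normalisation gave 1 member probe set, of Klk1b5, at least 2-fold higher in tubules of both genotypes, against 0. The 4 calls of the additive fit became 0 without a variance trend, when 0 of all 22626 probe sets were called either and 6 members had an unadjusted p under 0.05; under the other alternatives between 3 (of 11 single-gene probe sets) and 5 (with Klk1b16, adjusted p = 0.0303 in limma after the background filter) were called. Signs changed under some scaling in the preparation contrast for both Klk1b5 probe sets and Klk1b11 in W/Wv and for the first Klk1 probe set in XX/Sry, none of them called. For single probe sets and lists, 365 values kept their place, 46 moved, 4 calls were lost and 1 was gained. The causes were not tested.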
